A study of Homo sapiens with 2 samples.

Results

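The genes examined here are 10 innate sensors and adaptors, taken by symbol from a gene table of 57820 entries. The RNA sensors are DDX58 (RIG-I), IFIH1 (MDA5) and DHX58 (LGP2), and MAVS is the adaptor of DDX58 and IFIH1. The DNA sensor is MB21D1 (cGAS), with its adaptor TMEM173 (STING). The Toll-like receptors are TLR3 and TLR4, with the adaptors TICAM1 (TRIF) and MYD88. All 10 were found, and 9 had at least 10 expected counts in 1 of the libraries. The exception was TLR4. The study profiled 2 human liver cancer lines by RNA-seq to follow the p53-induced long noncoding RNA PURPL. SKHEP1 is labelled as endothelial cells and HepG2 as hepatocellular carcinoma. Both were wild type and unstimulated as far as the labels say, were grown in the same serum-containing medium, and gave 1 stranded mRNA library each, so no difference below has a replicate check and none was tested.

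Cells detect foreign or misplaced nucleic acid with dedicated receptors. RIG-I and MDA5 bind double-stranded RNA in the cytosol and engage MAVS on mitochondria, and LGP2 modulates both. cGAS binds cytosolic DNA and makes the cyclic dinucleotide that activates STING. TLR3 reads double-stranded RNA in endosomes through TICAM1, whereas TLR4, with its co-receptor LY96 (MD-2), reads bacterial lipopolysaccharide at the cell surface through MYD88 and TICAM1. The MAVS, STING and TICAM1 branches meet at the kinase TBK1 and the factor IRF3, which drive interferon genes, and several sensors are themselves induced by interferon. In the liver, hepatocytes, endothelial cells and Kupffer cells all carry some of these pathways.

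Because several of these genes are textbook interferon or NF-kappaB targets, the stretch upstream of the start site is shown for the 5 members whose RefSeq promoter window held a core motif of either kind. RefSeq (GRCh38.p14) windows of 300 bases, 250 before and 50 after the start, were matched for 7 of 10 members, and DHX58, MB21D1 and TMEM173 had none matched. The strings searched on both strands were the interferon-response core GAAANNGAA and the kappaB string GGGNNTTTC, whose matches are in capitals. Each sequence reads 5′ to 3′ on the strand of its gene.
DDX58, chr9:32526197-32526366, minus strand: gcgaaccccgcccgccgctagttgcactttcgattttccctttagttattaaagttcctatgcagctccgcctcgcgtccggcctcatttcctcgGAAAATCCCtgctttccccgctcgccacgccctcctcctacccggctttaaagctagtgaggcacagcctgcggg
IFIH1, chr2:162318685-162318858, minus strand: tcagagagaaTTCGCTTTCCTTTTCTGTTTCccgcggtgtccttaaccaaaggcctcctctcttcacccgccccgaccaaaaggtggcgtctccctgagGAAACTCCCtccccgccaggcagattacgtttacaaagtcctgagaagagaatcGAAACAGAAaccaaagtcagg
TLR3, chr4:186068986-186069161, plus strand: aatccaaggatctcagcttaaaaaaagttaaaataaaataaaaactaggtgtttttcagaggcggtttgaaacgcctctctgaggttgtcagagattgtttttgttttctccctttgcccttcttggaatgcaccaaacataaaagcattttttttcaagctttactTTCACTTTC
MYD88, chr3:38138491-38138660, plus strand: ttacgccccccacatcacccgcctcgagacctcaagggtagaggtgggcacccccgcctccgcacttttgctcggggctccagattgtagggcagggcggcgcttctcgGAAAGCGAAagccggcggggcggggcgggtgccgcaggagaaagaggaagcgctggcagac
TICAM1, chr19:4831713-4831882, minus strand: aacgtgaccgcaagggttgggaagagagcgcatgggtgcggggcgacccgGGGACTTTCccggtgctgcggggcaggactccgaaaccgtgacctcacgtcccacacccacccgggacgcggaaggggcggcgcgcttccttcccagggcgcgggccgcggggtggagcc

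IFIH1 held 4 copies of the interferon-response core, 3 of them overlapping in turn from -164 to -144 and 1 at -21 to -13 from the start site. TLR3 held 1 copy at -3 to 6, across the start site, and MYD88 held 1 at -61 to -53. The kappaB string stood at -75 to -67 in DDX58 and in IFIH1 and at -120 to -112 in TICAM1. MAVS and TLR4 held neither string. Of all 35116 RefSeq promoter windows of this length, 8.11% held the interferon-response core and 4.78% the kappaB string. Both strings are short and common, and these are letter matches in the reference genome and not measurements in either line. Of the members with the interferon-response core, TLR3 was higher in SKHEP1 and MYD88 in HepG2, and no direction is given for IFIH1. A link between these strings and the levels was not tested.

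The libraries were of similar depth, with 19940557 expected counts in SKHEP1 and 22477757 in HepG2. Levels are counts-per-million (CPM) after TMM scaling, which corrects for depth and composition, and 3 counts, the least taken as a measurable level, correspond to 0.148 CPM in SKHEP1 and 0.135 in HepG2. The 95% intervals cover counting error only, and may be too narrow, since the reads carry no molecular identifiers and PCR copies cannot be told from separate molecules. Of 6 hepatocyte markers, all 6 were at least 4-fold higher in HepG2. In SKHEP1, 5 had no count and the remaining marker had 1817. The endothelial label of SKHEP1 was not matched by the 5 of 6 listed endothelial markers that were analysed, which had at most 10 counts there, with KDR at 0. Of 7 macrophage and leukocyte markers, 6 had no more than 5 counts in either line, and only the lysosomal gene CD68 was above that.

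Relative to HepG2, SKHEP1 had more mRNA of 7 of the 9 measurable sensors and adaptors, although 1 of these, IFIH1, turned to HepG2 when the lines were centred on housekeeping genes. HepG2 had more of MAVS and MYD88. MB21D1 and TLR3 were the extremes, present in SKHEP1 and at 0 and 3 counts in HepG2. With a ratio of at least 4 taken as a call, 3 members (DHX58, MB21D1, TLR3) were higher in SKHEP1, where 16.5% of all 15436 genes compared were called, and 1 (MYD88) was higher in HepG2, where 13.0% were called. A 2-fold limit gave 6 and 2 members, against 25.0% and 23.4% of all genes. An 8-fold limit gave 2 and 0, against 11.5% and 8.15%. An interval wholly past 4-fold also gave 2 and 0, against 13.1% and 9.89%. The median log2 ratio of the 9, HepG2 over SKHEP1, was -1.41, against -0.03 for all genes compared and -0.47 for 20 housekeeping genes. In bulk RNA, fewer cells with a transcript and less transcript per cell cannot be told apart.

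**Figure D1:**
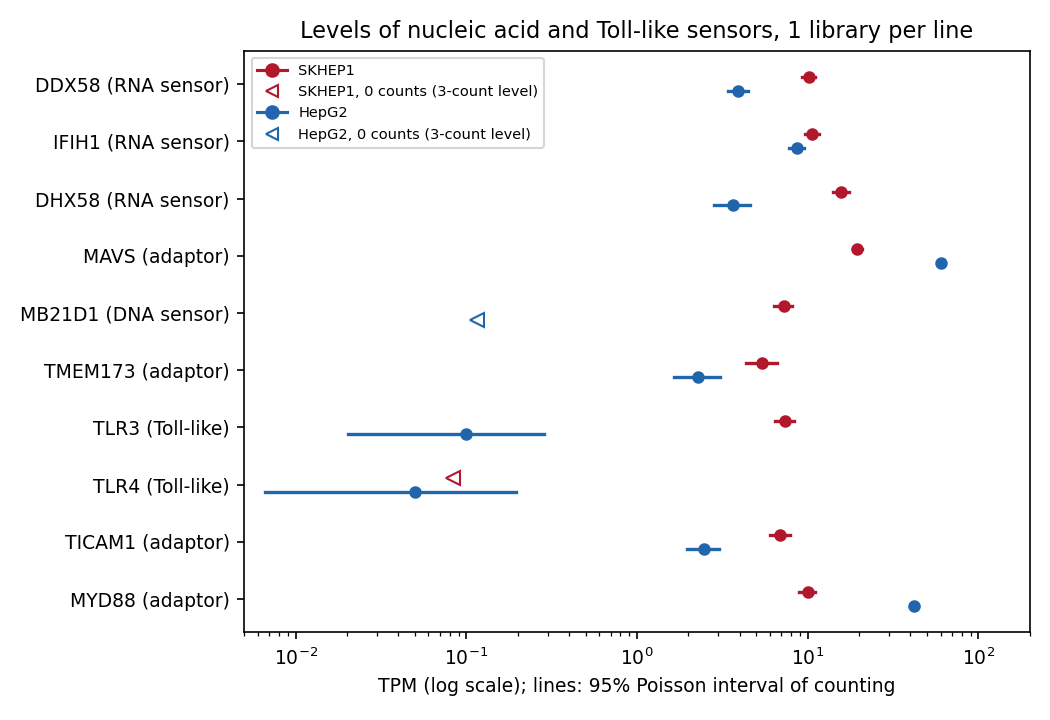
Level of each sensor and adaptor in TPM (transcripts-per-million, log scale), with the SKHEP1 library in red and the HepG2 library in blue. Horizontal lines are 95% Poisson counting intervals, and open triangles mark genes with 0 counts at the level 3 counts would give. MAVS and MYD88 lie to the right in HepG2, at 60.3 and 41.9 TPM, while MB21D1 and TLR3 rest on 0 and 3 counts there.

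Among the cytosolic RNA sensors, the difference between the lines ran from slight for IFIH1 to more than 5-fold for DHX58. DDX58, the sensor of short RNA with a 5′ triphosphate, had 543 counts in SKHEP1 (95% Poisson interval 498.3 to 590.7) and 225 in HepG2 (196.6 to 256.4). That is 26.9 against 10.1 CPM, a 2.65-fold higher level in SKHEP1 with a counting interval of 2.26 to 3.11. IFIH1, the sensor of long double-stranded RNA, had 416 counts in SKHEP1 (377.0 to 458.0) and 394 in HepG2 (356.1 to 434.9). Its ratio was 1.16 in favour of SKHEP1 (1.01 to 1.33), and it turned to 1.19-fold in favour of HepG2 when the lines were centred on the housekeeping genes, so no direction is given for IFIH1.

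DHX58, which lacks the signalling domains of the other two sensors, had 333 counts in SKHEP1 (298.2 to 370.8) and 72 in HepG2 (56.3 to 90.7). It was 5.08-fold higher in SKHEP1 (3.93 to 6.65). The interval reaches just below 4-fold, and centring on the housekeeping genes gave 3.67-fold. Within SKHEP1, DHX58 was the highest of the 3 RNA sensors per length, at 15.6 TPM against 10.6 for IFIH1 and 10.1 for DDX58. In HepG2 the order was another one, with IFIH1 at 8.60 TPM above DDX58 at 3.90 and DHX58 at 3.63.

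MAVS, the mitochondrial adaptor shared by DDX58 and IFIH1, was the member with the highest TPM in both lines, and it was higher in HepG2, the opposite direction to DDX58 and DHX58. It had 942 counts in SKHEP1 (882.8 to 1004) and 3010 in HepG2 (2903 to 3119), or 46.6 and 135.7 CPM. The level was 2.91-fold higher in HepG2 (2.70 to 3.13), short of a 4-fold call, and 4.03-fold when centred on the housekeeping genes. In TPM, MAVS stood above 54.7% of the genes with at least 10 counts in SKHEP1 and above 79.7% in HepG2.

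The balance of sensor to adaptor inside each library does not depend on the scaling between libraries. The TPM of DDX58 was 0.517 of that of MAVS in SKHEP1 (counting interval 0.464 to 0.575) and 0.0647 in HepG2 (0.0562 to 0.0740). For IFIH1 the share of MAVS was 0.544 in SKHEP1 and 0.143 in HepG2, a 3.81-fold gap. For DHX58, which lacks the signalling domains of DDX58 and IFIH1, it was 0.799 and 0.0602, a 13.3-fold gap. All 3 RNA sensors thus had less mRNA per MAVS mRNA in HepG2. How many of all genes also had less mRNA per MAVS mRNA there was not counted. These 3 ratios share MAVS as denominator, whose TPM was 3.08-fold higher in HepG2, so they are not independent of each other. The TPM of IFIH1 itself was only 1.24-fold higher in SKHEP1, so its gap came mostly from MAVS.

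**Figure D2:**
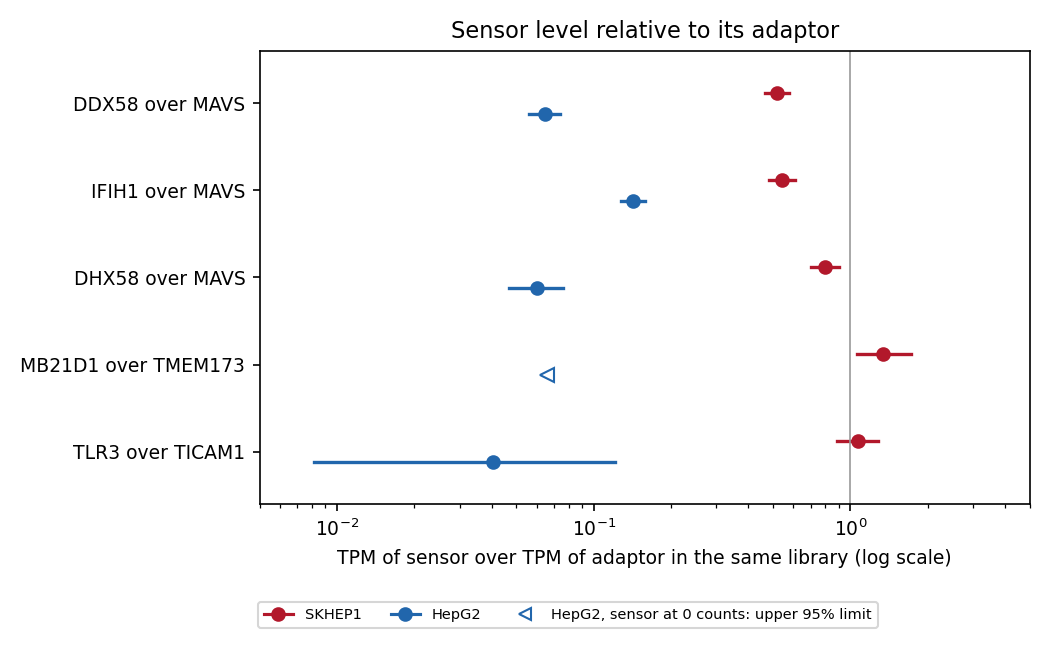
TPM of each sensor over the TPM of an adaptor in the same library (log scale), with SKHEP1 in red, HepG2 in blue and lines for 95% counting intervals. DHX58, which lacks the signalling domains of DDX58 and IFIH1, is set over their adaptor MAVS. In all 5 pairs the HepG2 point lies to the left of the SKHEP1 point, and the RNA sensor pairs all share MAVS as denominator. The open triangle for MB21D1 over TMEM173 is an upper limit of 0.0655.

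The DNA sensing pair was low in both lines, and its sensor was not detected in HepG2. MB21D1, the cytosolic DNA sensor cGAS, had 265 counts in SKHEP1 (234.1 to 298.9) and 0 in HepG2. Against the floor of 3 counts, or 0.135 CPM in HepG2, MB21D1 was 97.0-fold higher in SKHEP1. The exact 95% counting limit lets a count of 0 stand for up to 3.69 counts, or 0.166 CPM. With that limit MB21D1 was at least 78.3-fold higher. The ratio against the floor was 62.3-fold on the TPM scale, where the HepG2 table gives this uncounted gene a shorter effective length. TMEM173, the adaptor STING, had 94 counts in SKHEP1 (76.0 to 115.0) and 44 in HepG2 (32.0 to 59.1). It was 2.35-fold higher in SKHEP1 (1.62 to 3.44), and was the lowest of the detected members there at 5.37 TPM. In SKHEP1 the TPM of MB21D1 was 1.34 times that of TMEM173 (1.06 to 1.72).

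Of the Toll-like receptors among the members, TLR3 differed widely between the lines, and TLR4 was not measurable in either. TLR3, the endosomal receptor for double-stranded RNA, had 257 counts in SKHEP1 (226.5 to 290.4) and 3 in HepG2 (0.619 to 8.77). The ratio was 94.1 in favour of SKHEP1, with a wide counting interval of 31.8 to 459.1, because it rests on 3 counts. With a prior count of 2 added to both libraries it was 55.8-fold. TLR4 had 0 counts in SKHEP1 and 2 in HepG2 (0.242 to 7.22). By the exact counting limit, the 0 in SKHEP1 can stand for up to 3.69 counts, or 0.183 CPM. No ratio is given for TLR4, since both values lie under the floor.

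The Toll-like adaptors went in opposite directions. TICAM1, which serves TLR3, had 217 counts in SKHEP1 (189.1 to 247.9) and 88 in HepG2 (70.6 to 108.4), 2.71-fold more in SKHEP1 (2.10 to 3.51). MYD88, the adaptor of most other Toll-like receptors and of the interleukin-1 receptor family, had 336 counts in SKHEP1 (301.0 to 373.9) and 1567 in HepG2 (1490 to 1647). It was 4.25-fold higher in HepG2, with an interval of 3.77 to 4.79 that includes values under 4. The TPM of TICAM1 was 0.688 of that of MYD88 in SKHEP1 (0.578 to 0.819) and 0.0587 in HepG2 (0.0467 to 0.0727). TLR3 and its adaptor TICAM1 stood close to each other in SKHEP1, at 7.33 and 6.87 TPM, a ratio of 1.07 (0.887 to 1.28). In HepG2 that ratio was 0.0407 (0.00809 to 0.121).

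**Figure D3:**
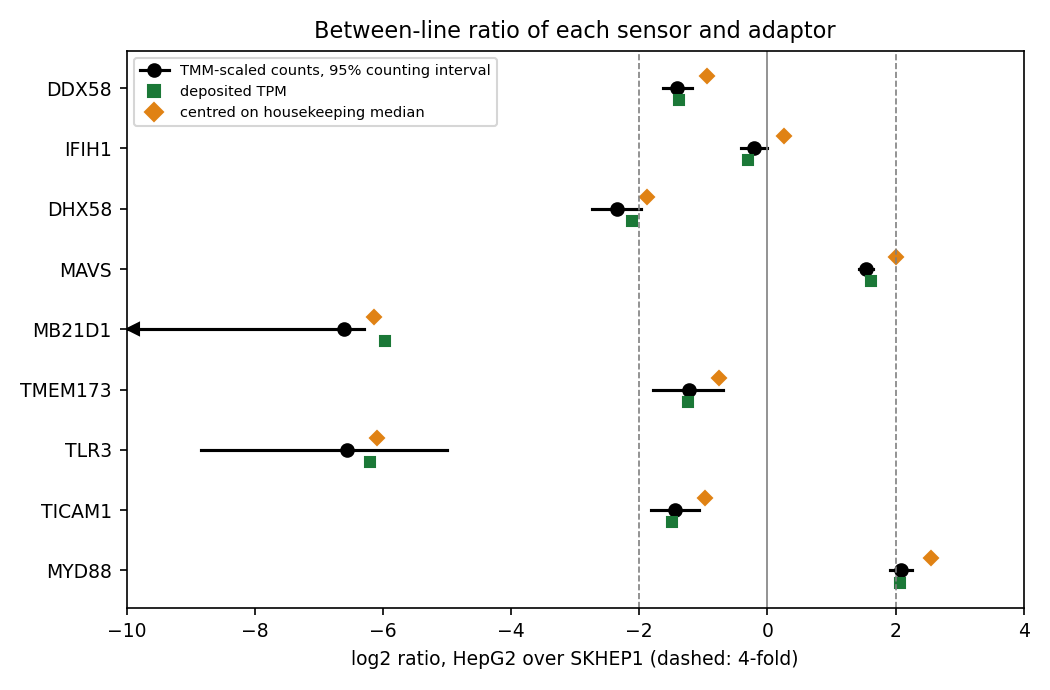
Log2 ratio, HepG2 over SKHEP1, of the 9 members compared. Black points with lines are TMM-scaled counts with 95% counting intervals, an arrow marks an interval with no lower end (MB21D1), green squares are ratios from deposited TPM, orange diamonds are centred on the housekeeping median, and dashed lines mark 4-fold. MB21D1 and TLR3 lie near -6.6, and MAVS and MYD88 are the only members on the right under every scaling drawn.

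Ordered by TPM, the 9 members detected in SKHEP1 spanned a narrow range, from MAVS at 19.6 to TMEM173 at 5.37. The counting intervals of IFIH1, DDX58 and MYD88 (9.98 TPM) overlapped from neighbour to neighbour. So did those of TLR3, MB21D1 (7.22 TPM), TICAM1 and TMEM173. In HepG2 the range was wide, with MAVS and MYD88 at 60.3 and 41.9 TPM and IFIH1 next. DDX58, DHX58, TICAM1 (2.46 TPM) and TMEM173 (2.27 TPM) then overlapped from neighbour to neighbour, and TLR3, TLR4 and MB21D1 were at 0.10, 0.05 and 0. The median of all genes with at least 10 counts was 16.2 TPM in SKHEP1 and 17.3 in HepG2. MAVS was thus the only member above the median in SKHEP1, and MAVS and MYD88 were the only ones above it in HepG2.

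The isoform-weighted transcript length that the tables give per gene differed between the lines for some members. DHX58, with 8 annotated transcripts, was weighted to 1866 bases in SKHEP1 and 1570 in HepG2. MAVS was at 3974 and 3650 bases, and DDX58 at 4408 and 4190. TICAM1 has a single annotated transcript and was at 2676 bases in both. These weights carry no error in the tables, and they make the TPM ratio of DHX58 (4.31) smaller than its count ratio. In GENCODE release 29, exons of MB21D1 overlap DDX43 on the other strand, which had 0 counts in both lines. Exons of TLR4 also overlap a noncoding gene on its own strand, and no overlap was found for the other 8 members.

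The wider pathways were described with 6 lists of 134 genes in all, of which 106 reached 10 counts. Of these, 19 were past 4-fold in favour of SKHEP1, or 17.9%, near the 16.5% of all genes, and 4 in favour of HepG2, or 3.77% against 13.0%. Centring on the housekeeping genes gave 15 and 6. The other 83 lay within 4-fold, and the median log2 ratio was -0.42.

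The 25 partners of RNA sensing held 5 genes higher in SKHEP1 and 0 higher in HepG2, and the other 20 lay within 4-fold. That count of 5 among 25 is near the 16.5% of all genes higher in SKHEP1. The count of 0 stands against 13.0% of all genes higher in HepG2. The median of the partners was -0.43, which became 0.04 when centred on the housekeeping genes. RNF135 (Riplet), a ubiquitin ligase that activates RIG-I, had 482 counts in SKHEP1 and 0 in HepG2. It was 176.4-fold higher in SKHEP1 against the floor of 3 counts, with an exact lower counting limit of 142.9. DDX60, a helicase linked to RIG-I, had 447 and 7 counts. TRAF5, a signalling adaptor, had 285 and 8. IRF7, the factor that amplifies interferon transcription, had 35 counts in SKHEP1 and 0 in HepG2. It was 12.8-fold higher in SKHEP1 against the same floor, with an exact lower counting limit of 9.88. RNF125, a ligase that marks RIG-I for degradation and is named here after its value was seen, had 67 and 17 counts, 4.33-fold higher with an interval of 2.51 to 7.86.

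TRIM25, TBK1, IKBKE, TRAF3 and IRF3 were expressed in both lines, unlike IRF7, which had 0 counts in HepG2. TRIM25, another ligase tied to RIG-I, was at 69.2 TPM in SKHEP1 and 66.9 in HepG2, with a ratio of 1.04 (0.992 to 1.09). TBK1 was at 37.5 and 18.0 TPM, 2.02-fold higher in SKHEP1 by counts, and its relative IKBKE at 9.07 and 5.26. The ligase TRAF3 was at 21.8 and 13.0 TPM. IRF3 was at 46.8 and 54.9 TPM, 1.29-fold higher in HepG2, a value that may include reads of BCL2L12, which overlaps it on the other strand.

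Of 21 DNA sensing partners compared, 1 was higher in each line and 19 were within 4-fold. The median was 0.32, or 0.79 when centred on the housekeeping genes. The share called was 4.76% in each direction, against 16.5% of all genes toward SKHEP1 and 13.0% toward HepG2. IFI16, a DNA sensor that cooperates with STING, stood at 2282 counts in SKHEP1 against 1 in HepG2. Against the floor of 3 counts its ratio was 835.1, with an exact lower counting limit of 449.2. The raw ratio of 2505 rests on 1 count in HepG2. ENPP1, the ectoenzyme that degrades the cGAS product, had 211 counts in SKHEP1 and 3003 in HepG2, 13.0-fold higher in HepG2 (11.3 to 15.0). SAMHD1, a dNTP hydrolase, was 1.69-fold higher in HepG2. TREX1, the main cytosolic DNA exonuclease, had 13 and 19 counts, and it shares exons with ATRIP, so its level is uncertain. Of the DNA sensing genes named here, HepG2 had lower counts for MB21D1, TMEM173 and IFI16 and higher counts for ENPP1 and SAMHD1. No direction is given for TREX1, whose ratio of HepG2 over SKHEP1 had an interval of 0.624 to 2.93. The list of partners lay mostly within 4-fold, with its median toward HepG2.

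Most other Toll-like receptors were not measurable in either line. Of the 8 outside the members, 5 had 0 counts in both libraries, TLR9 among them, and TLR2 had 0 and 8. TLR6, which pairs with TLR2, was the only one to reach 10 counts, at 102 in SKHEP1 and 15 in HepG2, a 7.47-fold difference (4.32 to 13.8). It shares exons with TLR1 in the annotation. The TLR4 co-receptors were low as well, with LY96 at 4 and 8 counts and CD14 at 40 and 58. UNC93B1, the chaperone that brings TLR3 to endosomes, was at 26.8 TPM in SKHEP1 and 7.52 in HepG2, 3.33-fold higher in SKHEP1 (2.66 to 4.19).

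Among the remaining Toll-like co-factors, TICAM2, the bridge between TLR4 and TICAM1, had 216 counts in SKHEP1 and 7 in HepG2, 33.9-fold higher (16.2 to 85.3). Its reads are divided with the readthrough gene TMED7-TICAM2, at 137 and 13 counts, so the ratio is uncertain. SARM1, a further adaptor of this family, had 531 and 25 counts, and its exons overlap SLC46A1 on the other strand. TIRAP, the bridge to MYD88, was 1.84-fold higher in HepG2 (1.46 to 2.32), in the direction of MYD88 itself. CD36, a scavenger receptor, had 6 counts in SKHEP1 and 181 in HepG2. Among the 9 genes of this list compared, 5 lay within 4-fold, 3 were higher in SKHEP1 and 1 was higher in HepG2. Their median was -0.49, or -0.02 when centred on the housekeeping genes. The shares called were 33.3% toward SKHEP1 and 11.1% toward HepG2, against 16.5% and 13.0% of all genes.

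Signalling behind MYD88 held few calls. Of 23 genes compared, 22 were within 4-fold. The median was 0.13, or 0.60 when centred on the housekeeping genes and -0.06 in TPM. The shares called were 4.35% toward SKHEP1 and 0.00% toward HepG2, against 16.5% and 13.0% of all genes. By TMM-scaled counts, the kinases IRAK1 and IRAK4 were 1.34-fold and 1.91-fold higher in SKHEP1, and the ligase TRAF6 1.57-fold. The log2 ratio of IRAK1, -0.42, was smaller in size than the 0.47 shift of housekeeping centring. No direction is therefore given for IRAK1. The gene past 4-fold was SIGIRR, an inhibitory receptor of the same family, at 82 counts in SKHEP1 and 7 in HepG2. SIGIRR was named after its value was seen. The 4.25-fold higher MYD88 in HepG2 was thus not matched in size by IRAK1, IRAK4 or TRAF6, which act directly behind it.

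The interferon genes that these pathways drive were not detected at this depth. All 8 type I and III interferon genes listed, IFNB1 among them, had 0 counts in both libraries. Of 12 receptor and transducer genes compared, 10 were within 4-fold. The median was -0.59, or -0.12 when centred on the housekeeping genes. The share called was 8.33% in each direction, against 16.5% of all genes toward SKHEP1 and 13.0% toward HepG2. IFNAR1, a subunit of the type I receptor, was 1.70-fold higher in SKHEP1. IRF1, a factor that can act without new interferon, was at 115.6 TPM in SKHEP1 and 7.99 in HepG2, 14.1-fold higher by counts (12.3 to 16.2). IFNLR1, the type III interferon receptor, had 19 counts in SKHEP1 and 333 in HepG2, 16.0-fold higher in HepG2 (10.1 to 26.9).

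**Figure D4:**
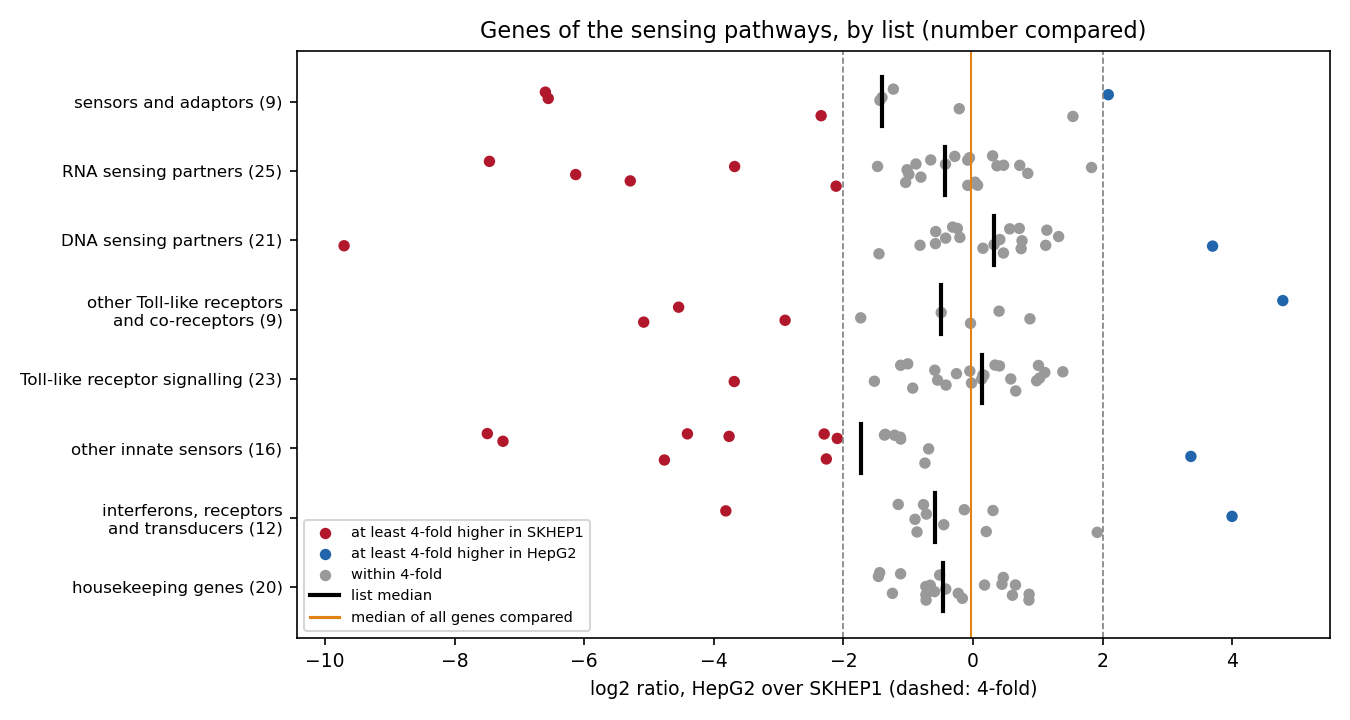
Log2 ratio, HepG2 over SKHEP1, of every gene compared in each list, with counts under 3 set to 3. Red points are at least 4-fold higher in SKHEP1, blue points at least 4-fold higher in HepG2, grey points within 4-fold, black bars are list medians and the orange line is the median of all genes compared (-0.03). The list of other innate sensors holds 8 red points among 16, while Toll-like receptor signalling holds 1 among 23 and lies around 0.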

How the data were processed

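Per the labels' protocols, RNA was isolated with a column kit and made into stranded mRNA libraries, 1 for SKHEP1 and 1 for HepG2. The submitters' processing notes name hg19, cutadapt, STAR, RSEM and DESeq2. The sources used here give no versions, annotation release or strand setting, which leaves genes that overlap on opposite strands uncertain. Expected counts (estimated reads per gene) are RSEM output, per the file headers. The deposited TPM and FPKM values were made by the authors with RSEM and are scaled for effective length.

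Expected counts were rounded and scaled with TMM factors (1.01 for SKHEP1, 0.99 for HepG2) from edgeR 4.0.16 in R 4.3.3. Genes with at least 10 expected counts in either library were compared. Counts under 3 were set to 3 for ratios and calls, and a compared gene with 1 or 2 counts is also printed with its raw ratio. Levels have exact Poisson intervals and ratios exact conditional Clopper-Pearson intervals, at 95%. TPM intervals are count intervals times the TPM of 1 count. No test was possible with 1 library per line. The calculation was tested on simulated counts. Python 3.11.15 with scipy 1.17.1 was used.

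The members, the 6 pathway lists and the markers were chosen with earlier results of these data known. Named pathway genes are 24 central components, 1 of which is not reported here, and per list up to 3 per direction with the largest lower limit of the ratio, past 4-fold and with at least 100 counts. RNF125, SIGIRR, CARD9, AIM2, KDR and CD68 were named after their values were seen. The promoter search was added after the values were seen, and its strings were shortened to 9 letters after a first search with strings 1 letter longer, which matched the same members. Where TLR9 had 2 identifiers, the current one was used. Of the 6 endothelial markers listed, PECAM1 was not analysed here. Alternatives were total counts, DESeq2 1.42.0 size factors, TPM, FPKM, a prior count, unrounded counts, other minimums and fold limits, and, added after seeing the data, centring on the housekeeping genes.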

Additional observations from a re-analysis of the deposited data

How the results depend on the processing

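No paired analysis was possible because each line has 1 library. All 9 members compared kept their direction under total counts, DESeq2 size factors, TPM, FPKM, a prior count of 2 and unrounded counts, and the calls at 4-fold were the same 4. A 2-fold limit gave 6 members higher in SKHEP1 and 2 in HepG2, and 33 and 13 pathway genes, with 25.0% and 23.4% of all genes past it toward SKHEP1 and HepG2. An 8-fold limit, and likewise asking for an interval wholly past 4-fold, left 0 members higher in HepG2 and 2 higher in SKHEP1. MYD88, the HepG2 call at 4-fold, was at 4.25-fold with a lower limit of 3.77. Centring on the housekeeping median, chosen after seeing the data, shifted all log2 ratios by 0.47 and gave 2 members higher in HepG2, MAVS and MYD88, with DHX58 at 3.67-fold and IFIH1 turned to HepG2. Over all genes it moved the calls from 2549 higher in SKHEP1 and 2002 in HepG2 to 2094 and 2686. The other scalings moved the median of all genes by -0.04 to 0.04. Depth limits MB21D1, TLR3, TLR4, RNF135, IRF7, IFI16, LY96, NLRP3 and OAS2, among others, whose lower counts are 0 to 4.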

Other observations

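Innate sensors outside the 10 members were mostly higher in SKHEP1 or within 4-fold. Of 16 compared, 8 were at least 4-fold higher in SKHEP1, 7 lay within 4-fold and 1 was higher in HepG2, against 16.5% and 13.0% of all genes called higher in SKHEP1 and in HepG2. Their median log2 ratio was -1.73, or -1.26 when centred on the housekeeping genes. NLRP3, the sensor of a caspase-1 inflammasome, had 417 counts in SKHEP1 and 0 in HepG2. It was 152.6-fold higher in SKHEP1 against a floor of 3 counts, with an exact lower counting limit of 123.6. NLRP1, another inflammasome sensor, had 915 and 37 counts, 27.2-fold higher (19.5 to 38.8). OAS2, which makes the activator of RNase L, had 493 and 3 counts, a ratio of 180.4 (61.4 to 877.9). EIF2AK2, the kinase PKR that halts translation on double-stranded RNA, was 1.67-fold higher in SKHEP1, and its exons overlap GPATCH11 on the other strand. CARD9, an adaptor of fungal receptors named after its value was seen, was the gene higher in HepG2, at 7 and 79 counts. AIM2, a DNA sensor of the inflammasome also named after its value was seen, had 0 counts in both libraries.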
